A study of Mus musculus with 8 samples.

Results

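The core circadian clock was examined in 2 fractions of luminal cells sorted from the mouse mammary gland, through 10 genes, namely Clock, Npas2, Per1, Per2, Per3, Cry1, Cry2, Nr1d1, Nr1d2 and Dbp. They were taken from a table of raw read counts by gene ID, and all 10 of the 24594 listed genes that carry these symbols were found. The fractions were luminal progenitors (LP), sorted as c-Kit high, and mature luminal cells, sorted as c-Kit low and labelled as luminal differentiated. Both came from untreated wild type C57BL/6J virgin mice. The study's methods give an adult age range and an even dark/light cycle for its mice, but no hour of collection was found. The methods also describe many hours of enzyme digestion of the glands in culture medium before sorting. The methods call the replicates for RNA sequencing biological, and give fewer of them per condition than the 4 libraries per fraction used here. The labels do not say which libraries came from separate animals, so that the spread between libraries may be partly technical. There were 4 LP and 4 mature libraries. The number that opens each library name (573, 574, 674 or 718) occurs once in each fraction and joins the libraries into 4 pairs, called replicates 1 to 4. What the number stands for is not stated.

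In mammals the clock is a loop of transcription factors. CLOCK, or its relative NPAS2, joins with the product of Arntl (also called BMAL1) and activates genes that carry an E-box, among them the Per and Cry genes, whose proteins return to the nucleus and repress their own activators. A second arm holds the nuclear receptors NR1D1 and NR1D2 (REV-ERB alpha and beta), which repress Arntl at ROR elements, and an output arm holds DBP, an activator that binds D-boxes. Per1 and Per2 are also induced outside the loop, by acute stimuli through CREB and by glucocorticoids. Because many clock genes rise and fall over the day, a level in tissue taken at an unknown hour is 1 point on a cycle. Here the level was moreover read after the many hours of digestion. In bulk RNA, expression in fewer cells and less RNA in every cell cannot be told apart.

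Of the 10 clock genes, 4 were lower in LP and none was higher. Nr1d1 was 6.17-fold, Dbp 4.55-fold, Per1 3.63-fold and Nr1d2 2.18-fold higher in mature cells than in LP. Clock and Per3 were at nearly equal levels in both fractions. Per2, Cry1 and Cry2 had lower means in LP but did not pass the test, and Npas2, with 37 to 52 reads in each library, was not called. Thus the repressors of the second arm and the D-box activator differed between the fractions, whereas a difference in the activator Clock was not detected.

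The promoters of the genes that differed are shown with those of Per3, which holds D-boxes and did not differ, and of Ciart, a further clock gene described below. Each is a window of 300 bases, from 250 bases before to 50 bases after the annotated transcript start, read on the strand of the gene from RefSeq on GRCm38.p6. Capitals mark an E-box (CACGTG), an E-prime box (CACGTT), a D-box (TTATGTAA), the core of a ROR element (TAGGTCA) or a cyclic AMP response element (TGACGTCA), on either strand. No letters were shared between 2 matches. The windows lie at chr11:98775328-98775627 for Nr1d1 on the minus strand, chr7:45704997-45705296 for Dbp on the plus strand, chr11:69098699-69098998 for the upstream of 2 starts of Per1 on the plus strand, chr14:18239057-18239356 for Nr1d2 on the minus strand, chr4:151044616-151044915 for Per3 on the minus strand and chr3:95882179-95882478 for Ciart on the minus strand.
Nr1d1: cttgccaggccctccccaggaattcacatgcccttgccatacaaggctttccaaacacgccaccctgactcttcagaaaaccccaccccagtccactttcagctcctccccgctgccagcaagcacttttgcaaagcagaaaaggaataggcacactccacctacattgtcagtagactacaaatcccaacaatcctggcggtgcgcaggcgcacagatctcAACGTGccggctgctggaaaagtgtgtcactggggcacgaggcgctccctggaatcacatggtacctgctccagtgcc
Dbp: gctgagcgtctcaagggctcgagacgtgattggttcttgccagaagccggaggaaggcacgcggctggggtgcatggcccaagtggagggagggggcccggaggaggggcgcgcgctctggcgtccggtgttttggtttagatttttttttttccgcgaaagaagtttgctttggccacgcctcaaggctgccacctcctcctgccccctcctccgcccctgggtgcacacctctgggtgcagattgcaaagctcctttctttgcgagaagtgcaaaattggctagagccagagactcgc
Per1: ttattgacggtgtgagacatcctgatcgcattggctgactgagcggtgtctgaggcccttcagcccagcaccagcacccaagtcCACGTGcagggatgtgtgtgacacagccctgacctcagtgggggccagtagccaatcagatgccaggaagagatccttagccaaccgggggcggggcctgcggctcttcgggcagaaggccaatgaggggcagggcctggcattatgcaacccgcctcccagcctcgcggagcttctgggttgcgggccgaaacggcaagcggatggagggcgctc
Nr1d2: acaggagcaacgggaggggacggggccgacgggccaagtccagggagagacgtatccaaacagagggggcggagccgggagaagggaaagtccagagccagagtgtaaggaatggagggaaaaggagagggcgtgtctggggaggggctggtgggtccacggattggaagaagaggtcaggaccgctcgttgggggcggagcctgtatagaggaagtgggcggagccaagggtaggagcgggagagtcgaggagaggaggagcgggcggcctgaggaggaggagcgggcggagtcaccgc
Per3: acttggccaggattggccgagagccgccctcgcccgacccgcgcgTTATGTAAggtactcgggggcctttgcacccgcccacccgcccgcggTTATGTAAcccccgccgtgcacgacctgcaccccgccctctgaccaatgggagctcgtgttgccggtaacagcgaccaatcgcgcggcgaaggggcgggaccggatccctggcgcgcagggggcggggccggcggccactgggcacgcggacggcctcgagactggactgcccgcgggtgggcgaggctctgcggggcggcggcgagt
Ciart: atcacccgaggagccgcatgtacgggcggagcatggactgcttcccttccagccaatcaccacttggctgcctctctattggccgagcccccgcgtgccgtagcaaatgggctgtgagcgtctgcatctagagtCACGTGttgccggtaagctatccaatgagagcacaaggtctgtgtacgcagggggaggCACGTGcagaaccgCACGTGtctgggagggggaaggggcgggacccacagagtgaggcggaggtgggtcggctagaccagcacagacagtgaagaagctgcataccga

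Windows were available for 9 of the 10 genes, 12 windows in all, and Per2 had none. The E-box stood in 2 of the 12 windows, those of Per1, 166 bases before the start, and Cry1, 60 bases before it. It stood in 7.15% of the 32851 windows of all genes. The E-prime box was found in 3 windows, at 28 bases before the start of Nr1d1, 79 before that of Cry1 and 166 before that of Cry2, against 4.68% of all windows. The only D-boxes were the 2 of Per3, at 205 and 158 bases before its start, against 0.938% of all windows. No member window held the ROR core (2.61% of all windows) or the cyclic AMP response element (1.79%), and the windows of Dbp, Nr1d2, Clock, Npas2 and the second start of Per1 held none of the 5 motifs. Genes that differed between the fractions thus stood on both sides of the motif search. A letter match is a description of these windows, and enhancers and introns, where many clock elements lie, were not searched.

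The libraries held between 5510863 and 7089597 counts in LP and between 4410049 and 7791593 in mature cells, and within each fraction every pair of libraries differed by more than counting noise, the chi-square of their counts over its degrees of freedom running from 11.95 to 89.0. The fractions carried the markers of their labels. Of the 5 progenitor genes summed here, Kit encodes c-Kit, the surface protein that defined the sort. Their sum reached 16171 to 26255 CPM in LP libraries and 343 to 1639 in mature libraries. CPM are read counts relative to library totals adjusted by the TMM factors of edgeR. Summed over 6 genes of hormone-sensing cells, LP reached 684 to 1439 CPM and mature cells 4642 to 6766. Keratin genes and Epcam, shared by all luminal cells, summed to 11277 to 12493 CPM in LP and 22792 to 40819 in mature cells. Mature replicate 3 stood apart, with the highest progenitor sum and the lowest hormone-sensing sum of its fraction and with Kit at 179 CPM against 41.2 to 73.5 in the other mature libraries. Marker sums of other cells stayed at or below 74.1 CPM for basal cells, 2.56 for immune cells and 8.48 for endothelial cells, with Cd3e and Kdr at 0 counts in all 8 libraries (which allows up to 3 counts in each, for counting error only), while fibroblast markers summed to 7.35 to 37.6 CPM in LP and to 133, 171, 22.4 and 21.7 CPM in mature replicates 1 to 4, mostly from Dcn.

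Genes were compared with the quasi-likelihood test of edgeR on the 12816 genes that passed its filter on low counts, and a gene was called at an adjusted p-value (Benjamini-Hochberg, over all genes tested) under 0.05. A negative log2 fold change means lower in LP. All 10 clock genes passed the filter. The count of 4 called genes among 10 stands against 24.7% of all genes tested, and 13.8% were called lower and 10.9% higher in LP. At an unadjusted p under 0.05 by edgeR the clock genes gave 5 lower and 0 higher. The share of all genes at that looser threshold was not taken, so the percentages above cannot be set beside these counts. The DESeq2 Wald test and the edgeR likelihood ratio test, at the adjusted threshold, also called 4 lower and 0 higher. The log2 fold change was negative for 8 of the 10, with a median of -0.86 against -2.8e-05 over all genes tested. For 5 of the 10 the ranges of the fractions did not overlap, which held for 29.5% of all genes tested, and in all 5 the mature libraries were the higher ones.

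**Figure D1:**
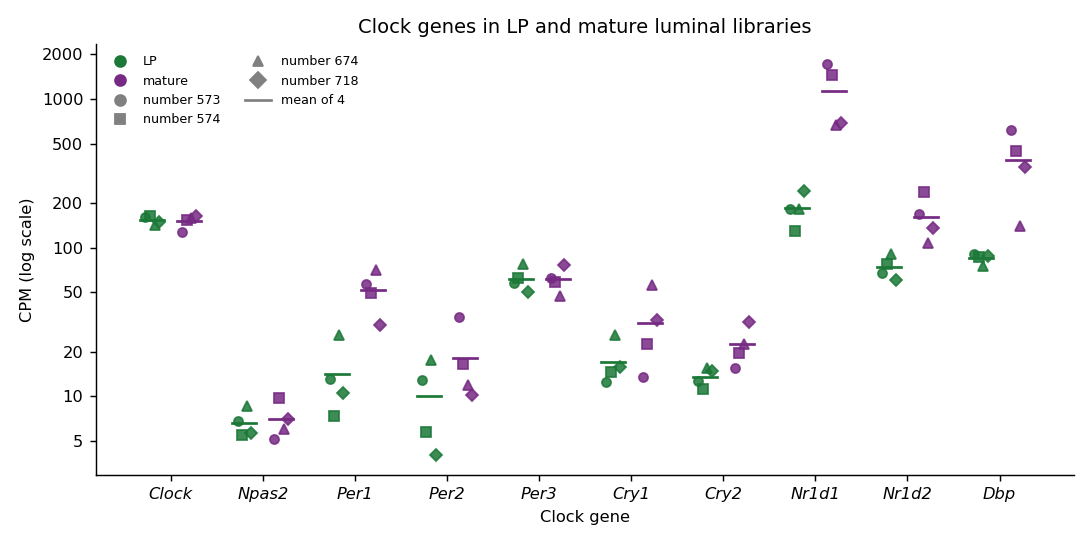
Level of each clock gene in every library, as CPM on a log scale, with LP in green, mature in purple, a marker shape for each label number and a line at the mean of 4 libraries. The mature points of Nr1d1, Dbp, Nr1d2 and Per1 all lie above their LP points, those of Clock and Per3 lie among them, and Cry2 separates narrowly, with LP up to 15.4 and mature from 15.5 CPM.

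Nr1d1 (chr11:98767932-98775377, minus strand, GRCm38), the heme-binding repressor of Arntl, was, of the 10 core genes, the most abundant per length and the one that differed most. Its CPM in LP replicates 1 to 4 was 181, 130.1, 181 and 241, and in mature replicates 1 to 4 it was 1723, 1445, 664 and 689.6. Every mature library lay well above every LP library, and the mature libraries fell into a higher pair (replicates 1 and 2) and a lower pair (replicates 3 and 4). The fibroblast sums split in the same way, and their part in the level of Nr1d1 was not tested. The log2 fold change was -2.63 ± 0.35 (SE), with an adjusted p of 0.000742 by edgeR. Within the pairs the difference in log2 CPM, LP minus mature, was -3.25, -3.47, -1.88 and -1.52.

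Nr1d2 (chr14:18204056-18239106, minus strand), its paralog with the same DNA motif, moved in the same direction by less. CPM was 66.9, 77.6, 90.8 and 60.8 in LP and 168, 236, 107 and 135 in mature cells. The fractions did not overlap, but LP replicate 3 and mature replicate 3 were close, so that this pair differed by -0.23 against -1.32, -1.60 and -1.14 in pairs 1, 2 and 4. Its log2 fold change was -1.12 ± 0.24 with an adjusted p of 0.00783 by edgeR. Without pair 1 the call was lost at an adjusted p of 0.0566, with a log2 fold change of -1.05.

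Dbp (chr7:45705100-45710203, plus strand), which encodes a PAR bZIP activator and is a direct target of CLOCK, had the most even level in LP among the genes that differed and the most uneven in mature cells. CPM in LP was 90.9, 86.4, 75.5 and 88.4. In mature cells it was 615, 447, 140.2 and 349.7, which left mature replicate 3 well below the other mature libraries and still above all LP libraries. LP against mature gave a log2 fold change of -2.18 ± 0.36 with an adjusted p of 0.00212 by edgeR, and the within-pair differences were -2.75, -2.37, -0.89 and -1.98. The SD of log2 CPM was 0.12 in LP and 0.92 in mature cells, beside medians over all genes tested of 0.34 and 0.46.

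Per1 (chr11:69095108-69109965, plus strand), the period gene that responds fastest to outside stimuli, was lower in LP in all 4 pairs. CPM was 13.1, 7.33, 25.9 and 10.5 in LP and 56.8, 49.1, 70.2 and 30.0 in mature cells. Replicate 3 was the highest library in each fraction, and the lowest mature library, replicate 4, stood just above LP replicate 3. For Per1 the log2 fold change was -1.86 ± 0.40 with an adjusted p of 0.00708 by edgeR, and within the pairs it was -2.09, -2.69, -1.43 and -1.48. Leaving out pair 1 brought the adjusted p to 0.0505, past the threshold, at a log2 fold change of -1.77.

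Per2 and Per3 were not called, and whether their differences depart from that of Per1 was not tested. Per2 (chr1:91415977-91459351, minus strand), the second negative limb component, had 12.9, 5.75, 17.6 and 4.02 CPM in LP and 33.9, 16.5, 11.8 and 10.2 in mature cells. These ranges overlap, since LP replicate 3 was above mature replicates 2 to 4, and pair 3 went the other way with 0.56 against -1.37, -1.48 and -1.28 in pairs 1, 2 and 4. The log2 fold change was -0.85 ± 0.54 (95% interval -2.03 to 0.33, adjusted p = 0.276 by edgeR), and without mature replicate 1 it was -0.33. Per2 had the largest spread of the 10 genes within LP, with an SD of log2 CPM of 0.95. Per3 (chr4:150997018-151044707, minus strand), which is dispensable for the rhythm itself, had 58.1, 62.2, 77.2 and 50.1 CPM in LP and 62.9, 59.1, 47.1 and 76.2 in mature cells. The fractions overlapped fully, and the log2 fold change was 0.01 with a 95% interval of -0.43 to 0.45 and an adjusted p of 0.972 by edgeR.

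The cryptochromes, the main repressors of CLOCK and BMAL1, were lower in LP in every pair without passing the test. Cry1 (chr10:85131700-85185054, minus strand) had 12.5, 14.5, 25.7 and 15.7 CPM in LP and 13.5, 22.6, 56.4 and 32.5 in mature cells. Replicates were ordered alike in both fractions, from 3 through 4 and 2 to 1, and the ranges overlapped. The log2 fold change was -0.87 ± 0.42 (95% interval -1.80 to 0.05, adjusted p = 0.154 by edgeR) and was -0.39 without mature replicate 3. Cry2 (chr2:92403646-92434085, minus strand) had 12.8, 11.2, 15.4 and 14.7 CPM in LP and 15.5, 19.7, 22.5 and 31.8 in mature cells. The fractions met without overlapping, the smallest p that an exact two-sided permutation test can give with 4 against 4 libraries (0.0286) was reached, and the log2 fold change of -0.73 ± 0.29 had an adjusted p of 0.0945 by edgeR.

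No difference was detected in the activators, with a narrow interval for Clock and wide ones for Npas2 and Arntl. Clock (chr5:76209868-76305603, minus strand), the histone acetyltransferase partner of BMAL1, had 159.6, 163, 141 and 149 CPM in LP and 128, 154, 158 and 162 in mature cells. It was the least variable of the 10 genes in both fractions, with an SD of log2 CPM of 0.09 in LP and 0.16 in mature cells, and its log2 fold change was 0.03 (95% interval -0.28 to 0.34, adjusted p = 0.904 by edgeR). Npas2 (chr1:39193702-39363240, plus strand), which can stand in for Clock, had 6.82, 5.46, 8.63 and 5.69 CPM in LP and 5.20, 9.72, 6.06 and 7.08 in mature cells, that is 37 to 52 reads in each library. The interval of its log2 fold change, -0.95 to 0.81, spans 0 on both sides (adjusted p = 0.918 by edgeR), and a difference inside it could not be told from 0 here. Arntl, named here after its values were seen because it partners both, had 12.8, 12.7, 22.6 and 28.2 CPM in LP and 19.7, 12.6, 42.7 and 7.08 in mature cells, with a log2 fold change of -0.11 (95% interval -1.24 to 1.01, adjusted p = 0.896 by edgeR). Its highest mature library was replicate 3 and its lowest was replicate 4. Nr1d1 and Nr1d2, which encode its repressors, were close between these libraries, at 664 and 689.6 CPM and at 107 and 135 CPM. Their part in the level of Arntl was not tested.

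**Figure D2:**
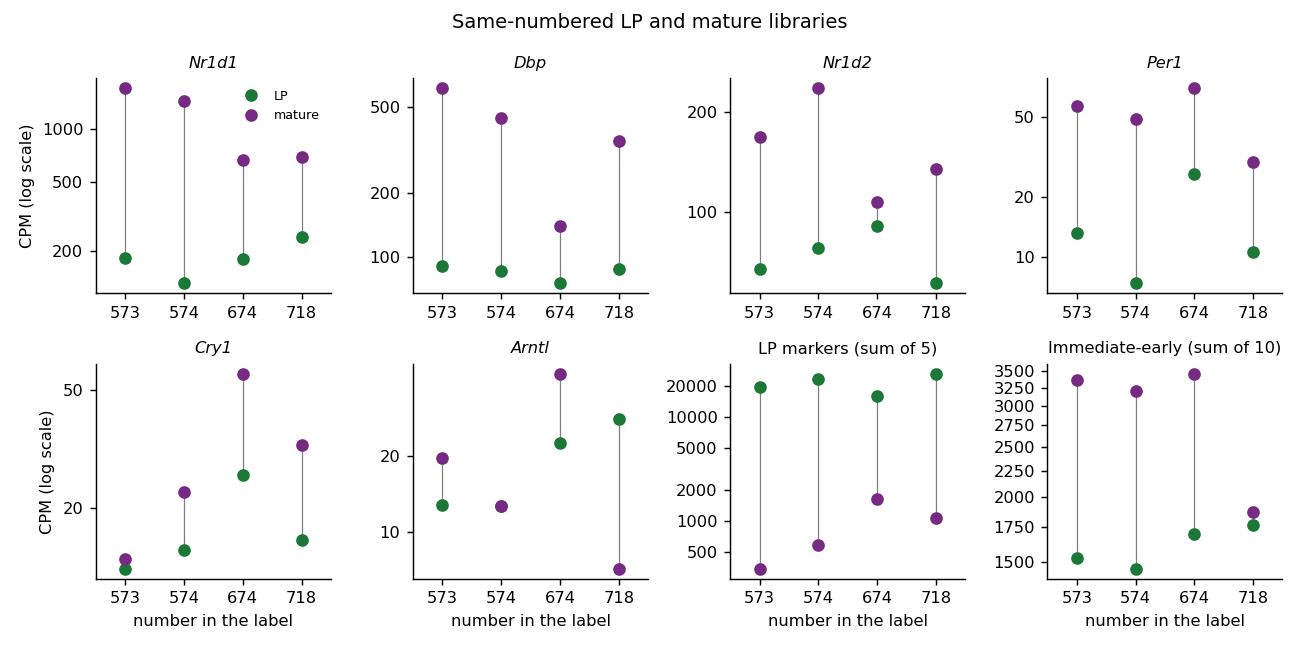
CPM on a log scale for 6 clock genes, the sum of 5 progenitor markers and the sum of 10 immediate-early genes, by the number in the library name, with LP in green, mature in purple and a grey line joining libraries of the same number. The gap between the fractions is narrowest at 674 (replicate 3) for Dbp, Nr1d2 and the progenitor markers, and across the mature libraries Nr1d1 and Dbp are lower where the progenitor sum is higher.

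In all, 6 of the 10 genes were lower in LP in all 4 pairs, which held for 23.5% of all genes tested, and none was higher in LP in all 4, which held for 23.2%. Variation within the mature fraction was larger than in LP for 8 of the 10 genes and for 66.3% of all genes tested. For Nr1d1 and Dbp the mature libraries stood in the order replicate 1, 2, 4 and 3. The summed progenitor markers had the opposite order, with 343, 582, 1064 and 1639 CPM in replicates 1, 2, 4 and 3, so that the mature libraries with a higher progenitor sum were those with less Nr1d1 and Dbp. The part of this in the results was not tested. Without mature replicate 3 the log2 fold changes were -2.78 for Nr1d1, -2.43 for Dbp, -1.24 for Nr1d2 and -1.64 for Per1, all still called, so that each of the 4 calls held without the library that stood apart.

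Levels are comparable between genes only per length, here as CPM per kilobase of the gene's merged exons. In LP the order ran from Nr1d1 at 59.5 ± 14.7 (SD, n = 4) through Dbp at 28.5 ± 2.26, Nr1d2 at 13.7 ± 2.44, Clock at 11.2 ± 0.73 and Per3 at 6.44 ± 1.18 to Cry1 at 5.12 ± 1.77, and the remaining 4 genes lay at 1.39 to 2.52. Only the steps from Nr1d1 to Dbp, from Dbp to Nr1d2 and from Clock to Per3 were free of overlap between neighbouring genes. In mature cells the order opened with Nr1d1 at 367 ± 174, Dbp at 129.6 ± 66.2, Nr1d2 at 29.8 ± 10.3 and Clock at 10.95 ± 1.12. There the steps from Nr1d1 to Dbp, from Dbp to Nr1d2 and from Nr1d2 to Clock were free of overlap, and from Clock downward each gene overlapped the next. The first 4 places were therefore the same in both fractions. Below them Per3 stood at place 5 in LP and 7 in mature cells, Cry1 at 6 and 5, and Per1 at 7 and 6, all among neighbours that overlap. With the longest transcript as the length, Per1 and Cry2 changed places in LP and Cry1 and Per1 in mature cells. With that length the levels of several genes were considerably larger. They were 46.4 in LP and 211 in mature cells for Dbp, 15.7 and 15.4 for Clock, 10.3 and 10.2 for Per3, and 3.40 and 5.63 for Cry2. Clock then stood close to Nr1d2 in LP, which was at 15.9.

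**Figure D3:**
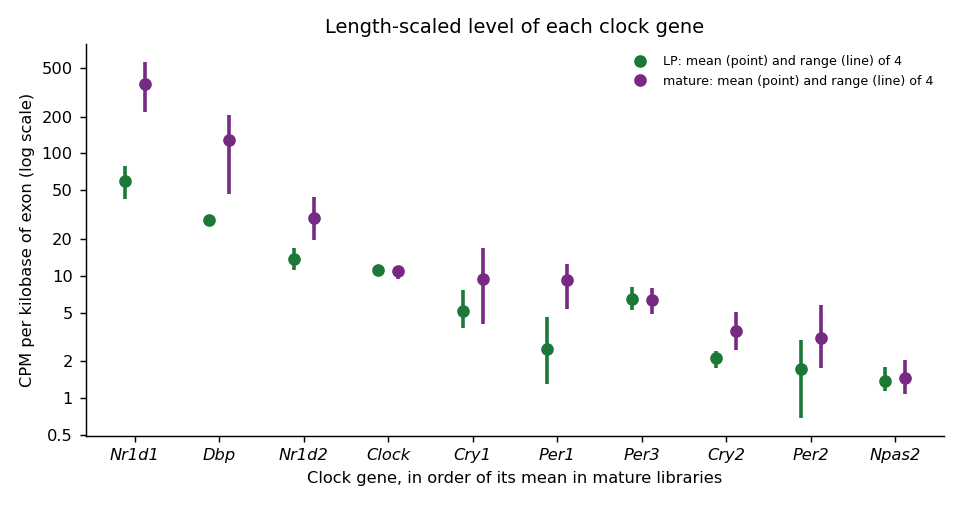
Mean (point) and range (line) of CPM per kilobase of exon over 4 libraries for each clock gene on a log scale, LP in green and mature in purple, in the order of the mature means. Nr1d1 leads in both fractions, at 59.5 in LP and 367 in mature cells, and Clock and Per3 are close between the fractions, at 11.2 and 10.95 and at 6.44 and 6.38.

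Nr1d1 and Dbp share exon sequence with a gene on the other strand. Exons of Thra, the thyroid hormone receptor alpha gene, cover 263 bases (8.5%) of Nr1d1, and exons of Sphk2, which encodes a sphingosine kinase, cover 539 bases (18.0%) of Dbp. The counting is not stated to use strand, so reads in the shared bases cannot be told apart. Both neighbours were also lower in LP. Thra had 67.4, 68.3, 57.4 and 72.8 CPM in LP and 380.0, 339.9, 191 and 173 in mature cells (log2 fold change -2.03, adjusted p = 0.000695 by edgeR). Sphk2 had 39.8, 42.4, 37.5 and 44.4 CPM in LP and 208, 141, 47.1 and 115 in mature cells (log2 fold change -1.64, adjusted p = 0.00768 by edgeR), again with mature replicate 3 lowest. When the whole count of the neighbour was taken off, Nr1d1 was left with 61.8 to 168 CPM in LP and 473 to 1343 in mature cells, and Dbp with 38.0 to 51.1 and 93.1 to 408. Both remained called, at log2 fold changes of -2.88 and -2.55. This subtraction, added after the values were seen, exceeds the shared reads only if those were also counted for the neighbour. Cry2 shares 295 bases (4.7%) with the noncoding D930015M05Rik.

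**Figure D4:**
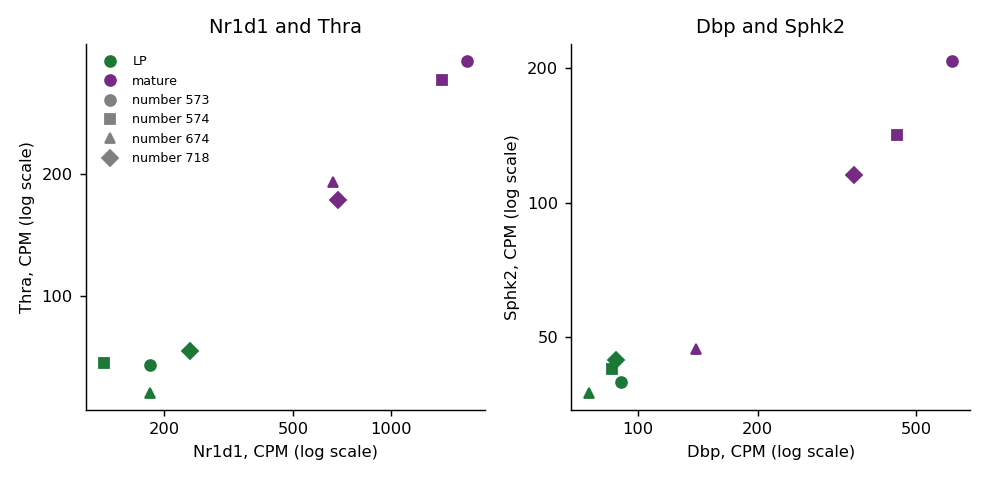
CPM of Nr1d1 against Thra and of Dbp against Sphk2 in each library on log axes, LP in green and mature in purple, with a marker shape for each label number. Each gene and its opposite-strand neighbour are higher in all 4 mature libraries than in LP, and Sphk2 in mature replicate 3, at 47.1 CPM, lies close to its LP libraries.

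Of 19 further clock genes, 16 were tested, 7 were lower and 2 higher in LP, and 7 were not called. Over all genes tested, 13.8% were called lower and 10.9% higher in LP. The median log2 fold change of the further clock genes was -0.71, against -2.8e-05 over all genes tested. Rorb, Fbxl21 and Timeless did not pass the filter on low counts. The 3 PAR bZIP activators, which bind the same D-box, split. Tef, like Dbp, was lower in LP, at 17.1 to 34.5 CPM against 58.6 to 101 in mature cells (log2 fold change -1.48, adjusted p = 0.00249 by edgeR). Hlf went the other way, with 85.2, 130.4, 82.8 and 98.2 CPM in LP and 7.59, 14.2, 24.4 and 21.4 in mature cells, a log2 fold change of 2.55 ± 0.33 and an adjusted p of 0.000735 by edgeR. LP therefore held less Dbp and Tef and more Hlf, without overlap of the fractions for any of the 3. Nfil3, the repressor that competes for the D-box, was also lower in LP, at 28.7 to 57.6 CPM against 105 to 239 (log2 fold change -2.03, adjusted p = 0.00136 by edgeR).

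Among repressors at the E-box, Bhlhe40 and Ciart were lower in LP, and Bhlhe41 (DEC2), named after its values were seen, was not called (log2 fold change -0.34, adjusted p = 0.318 by edgeR). Bhlhe40, the bHLH repressor also called DEC1, had 438 to 660.4 CPM in LP and 1305 to 3151 in mature cells without overlap (log2 fold change -2.08, adjusted p = 0.000859 by edgeR). Ciart, which encodes the CLOCK and BMAL1 inhibitor CHRONO and carries 3 E-boxes in the window printed above, had 9.87, 5.46, 4.81 and 1.66 CPM in LP and 77.6, 45.2, 22.7 and 8.59 in mature cells. It ran from replicate 1 down to replicate 4 in both fractions, so that mature replicate 4 was below LP replicate 1 while every pair differed, by -2.94, -2.98, -2.16 and -2.17. Its log2 fold change was -2.82 ± 0.68 with an adjusted p of 0.0123 by edgeR, and the call was lost without pair 2 (adjusted p = 0.0758).

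Of the listed kinase and F-box genes that act on PER proteins, 3 were lower in LP, beside 13.8% of all genes tested. The kinase gene Csnk1d, named after its values were seen, was not called (log2 fold change -0.19, adjusted p = 0.538 by edgeR). The deubiquitinase gene Usp2, given below, was higher in LP. The F-box genes Fbxw11 and Btrc, whose products mark PER for degradation, had log2 fold changes of -1.18 (adjusted p = 0.00137 by edgeR) and -0.83 (adjusted p = 0.00361). Csnk1e, which encodes a PER kinase like Csnk1d, had -0.79 (adjusted p = 0.0148). None of the 3 called genes overlapped between the fractions, and such a lack of overlap held for 29.5% of all genes tested. The call of Csnk1e was lost without pair 2 (adjusted p = 0.117) or pair 3 (0.0619).

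Besides Hlf, Usp2, a deubiquitinase gene known as a clock output, was higher in LP. Usp2 had 54.6, 49.7, 37.4 and 30.7 CPM in LP and 14.8, 14.4, 11.3 and 17.3 in mature cells (log2 fold change 1.58, adjusted p = 0.00187 by edgeR), without overlap. Rora, an activator at ROR elements, and Wee1, a cell cycle kinase gene under clock control, were higher in every mature library than in LP but were not called, with log2 fold changes of -0.52 (adjusted p = 0.0724 by edgeR) and -1.02 (adjusted p = 0.0502).

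**Figure D5:**
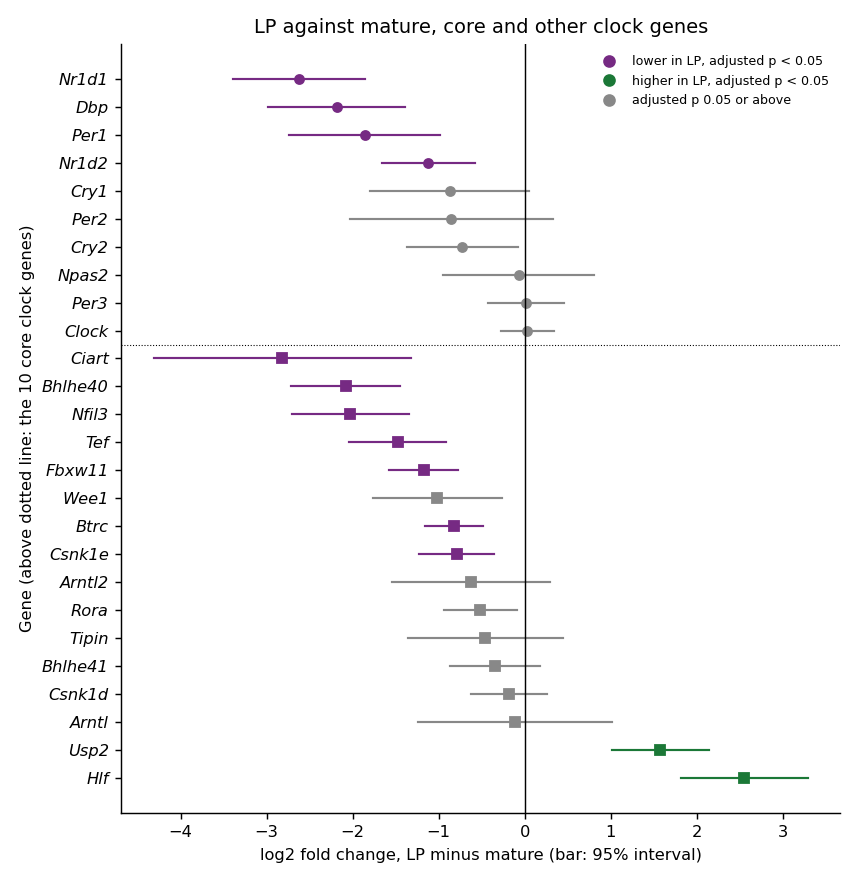
Log2 fold change, LP minus mature, with its 95% interval for the 10 core clock genes (circles, above the dotted line) and the 16 further clock genes tested (squares), in purple where called lower in LP, green where called higher and grey where not called. Nr1d1 (-2.63) and Ciart (-2.82) are the lowest of their groups, Clock and Per3 sit at 0, and Hlf (2.55) is the highest.

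Per1 is also an immediate-early gene, and other such genes differed in both directions. Of 10 listed, 9 were tested, 6 were lower in LP and 1 was higher, beside 13.8% and 10.9% of all genes tested. At an unadjusted p under 0.05 by edgeR, where the share of all genes was not taken, 7 were lower and 2 higher. Of the 3 with the highest mean level, Jun had a log2 fold change of -2.04 (adjusted p = 0.0014 by edgeR), Junb of -0.55 (adjusted p = 0.0834) and Ier2, the one that was higher in LP, of 1.40 (adjusted p = 0.00102). The summed level of the 10 was 1455 to 1769 CPM in LP and 1872 to 3454 in mature cells. Within the mature fraction the sum and Per1 had the same order of libraries, namely replicate 3, 1, 2 and 4, while in LP the orders differed. Of 6 genes induced by glucocorticoids, to which Per1 and Per2 also respond, 4 were lower in LP, beside 13.8% of all genes tested. Their sums were 444 to 574 CPM in LP and 606 to 1013 in mature cells. Errfi1 and Klf9 were called at log2 fold changes of -0.68 and -1.06, and Sgk1 was not, at -0.17 (adjusted p = 0.728 by edgeR). The count of 4 dropped to 2 without any 1 of LP replicates 1, 2 and 4 or mature replicate 1, and to 1 without pair 1 or pair 2. At an unadjusted p under 0.05 by edgeR, 4 genes of the list were lower and 1 was higher in LP, again without a share of all genes. The quasi-likelihood test with all libraries and DESeq2 called 0 higher, and without mature replicate 3 edgeR called 1. The mammary tissue was digested with enzymes for many hours before sorting. The part of that treatment or of these stimuli in the level of Per1, or of any other gene given here, was not tested.

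The genes whose log2 CPM was most like that of each called clock gene over the 8 libraries, among those with a mean of at least 3 log2 CPM, were Nup50 (Pearson r = 0.992) and Uck1 (0.991) for Nr1d1, Pacsin2 (0.995) and Fgfr2 (0.993) for Dbp, Mrpl54 (0.989) and Mxi1 (0.986) for Nr1d2, and Sptan1 (0.985) and Dync1h1 (0.982) for Per1. No gene was shared between these pairs. The 8 libraries share the split into 2 fractions, which enters every such r.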

How the data were processed

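Total RNA from sorted LP and mature cells was amplified as cDNA and sequenced in 8 libraries, 4 per fraction. Per the labels and the study's methods, the authors trimmed reads with cutadapt and aligned them to mm10 with bowtie2 (the submitters' processing notes give cutadapt 4.2 and Bowtie2 2.3.5.1). The authors deposited raw counts per gene by Entrez ID. The counting program and its use of strand are not given in the sources used here. Of 24594 IDs, 24570 matched a symbol.

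The comparison used edgeR 4.0.16 (TMM, filterByExpr, quasi-likelihood test, no covariate) under R 4.3.3. DESeq2 1.42.0 gave an alternative, and limma 3.58.1 was loaded by edgeR. The common biological coefficient of variation was 0.393. CPM carry no added count, and log2 CPM a prior count of 2. An SE is the absolute log2 fold change divided by the square root of F. Tables and figures used Python 3.11.15, pandas 2.3.3, scipy 1.17.1 and matplotlib 3.10.9. Positions and exon lengths came from GENCODE on GRCm38 and promoters from RefSeq. Tests were checked on simulated data.

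The genes and gene lists were chosen with earlier results of these data known, and 2 further clock genes are not reported here. Named were the 10 clock genes, every further clock gene called or not overlapping, up to 3 genes of highest mean from each other list, the 2 genes most like each called clock gene, markers at 0, and, after their values were seen, Arntl, Kit and the genes overlapping Nr1d1, Dbp and Cry2. Alternative settings were RLE and upper-quartile factors, no filter, 10 counts in every library, the DESeq2 and likelihood ratio tests, a replicate block, and each library or pair left out, with the overlapping gene's count taken off as a later addition.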

Additional observations from a re-analysis of the deposited data

Results flagged for a closer look

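Of 70 groups of 4 values examined (10 clock genes, further clock genes and list sums in each fraction), 1 held a library far from the others, where chance at 1 in 20 gives 3.5. It was the sum of the immediate-early genes in mature replicate 4, at 1872 CPM, whose gap to the nearest mature library at 3198 CPM was 0.838 of the range of the 4. Per1 was also lowest in that mature library, at 30.0 CPM. No explanation was tested.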

How the results depend on the processing

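The 4 calls among the core clock genes held under every alternative fit of all 8 libraries and with any single library left out. Leaving out 1 library or pair gave 2 to 4 core clock genes lower in LP (2 without pair 1, where Per1 and Nr1d2 lost the call), 5 to 8 further clock genes lower, 1615 to 3414 genes called in all (736 to 1668 higher, 879 to 1746 lower), 1 to 2 immediate-early genes higher, and 1 to 4 glucocorticoid-induced genes lower and 0 to 1 higher. The direction of genes near 0 turned in these fits, with log2 fold changes from -0.0585 to 0.10 for Clock, -0.28 to 0.22 for Npas2, -0.22 to 0.23 for Per3, -0.65 to 0.57 for Arntl and -0.33 to 0.0022 for Csnk1d. The label numbers paired the samples weakly. After subtraction of each fraction's mean, same-numbered libraries correlated at 0.062 to 0.148, 2 of 4 pairs over 0.1. Differently numbered libraries correlated at -0.156 to 0.078, and 7 of 8 libraries correlated best with their own number. With the replicate block 3027 genes were called against 3161, with 4 core clock genes lower, 2 immediate-early genes and 1 glucocorticoid-induced gene higher, and Arntl at 0.0578. Rora was then called (adjusted p = 0.0458). Wee1 was called in 7 of 19 alternative fits. The causes were not tested. Npas2 had 37 to 52 reads in each library, and the part of depth in its wide interval was not tested.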
